A study of Mus musculus with 50 samples.

Results

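In total, 10 genes of the myostatin, activin and growth differentiation factor (GDF) system were followed in the aging gastrocnemius, a fast calf muscle of the hindlimb. They were chosen by symbol: the ligands Mstn, Gdf11, Gdf5, Gdf15 and Inhba, and the receptors Acvr2b and Acvr1b. Fst, Fstl1 and Fstl3 were listed as extracellular inhibitors. All 10 symbols were found once among the 23880 genes measured, and 9 of them were among the 12586 genes that passed the filter on low counts (1 CPM, count per 1000000 counts of the library, reached by 8 mice or more). Gdf15 did not pass it.

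Polyadenylated RNA was sequenced from 1 gastrocnemius sample of each of 50 male, wild-type C57BL/6JRj mice, an inbred strain. The groups were 8 mice each at 8, 18, 22 and 24 months of age and 9 mice each at 26 and 28 months. All mice were caged singly and ate an AIN-93M diet, and animals with overt illness or tumors at dissection had been left out by the authors. The mice of 8 and 18 months had been on the diet for at least 2 months, and the older mice since they were 18 months old or slightly older, so time on the diet and age cannot be told apart. Total counts ranged from 13607229 to 21267375 a library. The sample is whole muscle, and fewer cells of a type and less RNA per cell cannot be told apart in it. Replicate 2 of 28 months held the highest levels of Mstn and Acvr1b among all 50 mice. The fold changes between 28 and 8 months without it are given beside those genes.

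Members of this family are secreted dimers made from larger precursors, which proteases cleave and which may stay latent outside the cell. Myostatin, GDF11 and the activins bind a type II receptor such as ACVR2B, which recruits a type I receptor such as ACVR1B (also named ALK4), and the pair phosphorylates SMAD2 and SMAD3. Follistatin and FSTL3 trap these ligands before they reach a receptor. In skeletal muscle the pathway is best known as a brake on growth: animals without myostatin become heavily muscled.

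The upstream sequences of 3 genes are shown because Mstn and Gdf11 encode close relatives of which the first did not pass the test with age and the second fell, and Acvr1b encodes a receptor for both and rose. RefSeq promoter windows were found for 8 of the 10 members on GRCm38.p6, the build of the deposited data. The windows of Gdf5 and Fst were not used here. Capitals mark each match to CANNTG, the E-box bound by basic helix-loop-helix factors such as the myogenic ones. Mstn lies on chr1:53061390-53061639, plus strand, Gdf11 on chr10:128891719-128891968, minus strand, and Acvr1b on chr15:101173822-101174066, plus strand, each ending at the base before the annotated start of the gene.

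Mstn: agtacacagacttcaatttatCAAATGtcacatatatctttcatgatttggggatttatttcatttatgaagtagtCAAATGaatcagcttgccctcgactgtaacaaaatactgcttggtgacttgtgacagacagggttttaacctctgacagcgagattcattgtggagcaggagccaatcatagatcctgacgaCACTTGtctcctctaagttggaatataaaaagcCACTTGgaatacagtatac
Gdf11: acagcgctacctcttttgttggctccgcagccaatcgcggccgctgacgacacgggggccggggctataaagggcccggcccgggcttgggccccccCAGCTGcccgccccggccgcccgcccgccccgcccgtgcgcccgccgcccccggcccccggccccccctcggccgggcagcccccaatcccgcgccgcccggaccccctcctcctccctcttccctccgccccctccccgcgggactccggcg
Acvr1b: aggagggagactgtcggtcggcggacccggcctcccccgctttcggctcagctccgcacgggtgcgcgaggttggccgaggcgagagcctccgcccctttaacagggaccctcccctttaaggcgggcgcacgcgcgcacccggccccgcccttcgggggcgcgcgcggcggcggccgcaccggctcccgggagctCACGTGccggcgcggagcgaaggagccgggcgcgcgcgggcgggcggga

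The 250 bases before the RefSeq start held 38.4% G and C with 3 CpG dinucleotides in Mstn, 81.2% with 33 in Gdf11 and 78.8% with 42 in Acvr1b. All 32851 promoter windows had a median of 52.4% and 6 CpG dinucleotides, and 90% of them lay between 34.8% and 73.6% G and C. Mstn had 4 E-box matches, and Gdf11 and Acvr1b had 1 each, a motif that 66.2% of all windows hold on either strand. GGGCGG, the GC box read on both strands, matched 8 times in Gdf11, 4 times in Acvr1b and never in Mstn, and 32.7% of all windows held it. CAGAC, the Smad box read on both strands, matched 2 times in Mstn and not in Gdf11 or Acvr1b, against 42.2% of all windows with a match. TATAAA was found once in Mstn and once in Gdf11 (12.4% of all windows).

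Myostatin RNA was the most abundant of the 10 per unit of transcript length. Over the 50 mice, Mstn averaged 76.8 transcripts per 1000000 transcripts (TPM; SD 26.8) and exceeded Acvr1b, next in order at 37.5 TPM (SD 19.0), in 50 of 50 mice. Fstl1 followed at 31.9 TPM (SD 8.59), and its order with Acvr1b was open, since Acvr1b was the higher in 26 of 50 mice. Gdf11 averaged 8.75 TPM (SD 4.14) and lay below Fstl1 in all 50 mice. The type II partner Acvr2b stood far lower than the type I receptor, at 3.24 TPM (SD 1.14), and could not be ordered against Fst at 3.13 TPM (SD 0.842), with 25 of 50 mice each way. Fstl3 (1.86 TPM), Inhba (0.659 TPM), Gdf5 (0.483 TPM) and Gdf15 (0.114 TPM) were at the low end. By mean TPM, Mstn exceeded 87.4% of the genes that passed the filter and Inhba 3.4%.

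**Figure D1:**
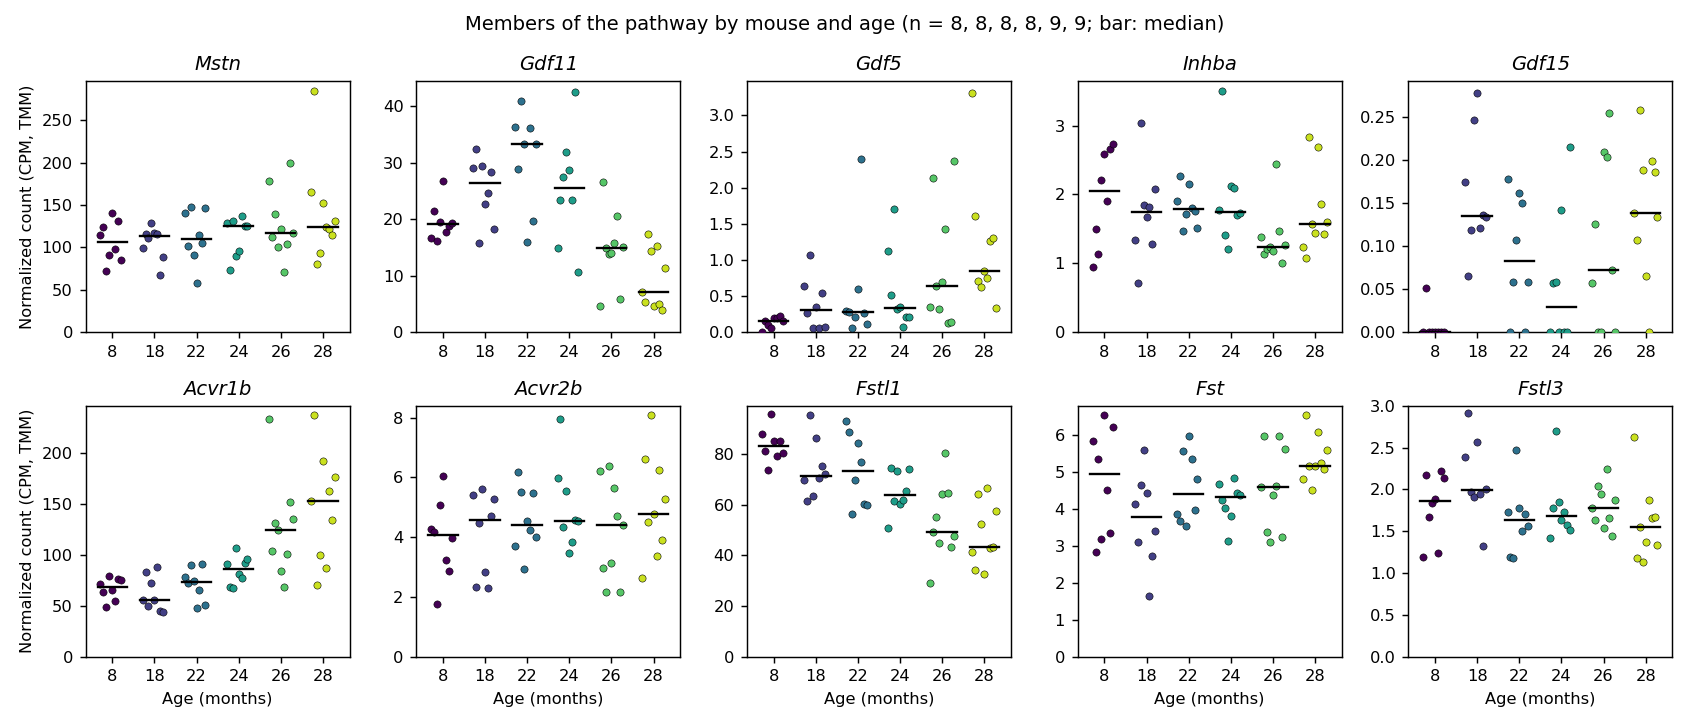
Normalized counts (CPM with TMM factors, y axis from 0) of the 10 genes in each mouse (points) at the 6 ages in months (x axis), with the median of each age as a bar. Fstl1 at 28 months lies wholly below 8 months, Acvr1b spreads upwards at 26 and 28 months, and Gdf11 is highest at 22 months, with a median of 33.3 CPM, and lowest at 28 months, with 7.17 CPM.

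Between 28 and 8 months, 4 of the 9 genes tested passed a false discovery rate (FDR) of 0.01: Acvr1b and Gdf5 rose, and Gdf11 and Fstl1 fell (edgeR quasi-likelihood test on counts, adjusted over all 12586 genes by Benjamini-Hochberg). That is 44.4% of the members, against 39.6% of all genes tested in this comparison, so the share of members that moved was near the background. Of all genes tested 21% rose and 18.7% fell (17.9% and 21.9% under upper-quartile factors), and of the 9 members 2 went each way. Gdf5 entered the test through older mice, since the 11 mice that reached 1 CPM were all older than 8 months, and of the other 8 members 3 passed. The median log2 fold change was 0.18 over the 9 members and 0.01 over all genes tested. Across all 6 ages together the same 4 genes passed, with 35.4% of all genes tested, and Gdf5 did not pass there in limma on log2(TPM + 1). None of the 9 passed between 18 and 8, 22 and 8 or 24 and 8 months, where 0.0715%, 0.0397% and 0.612% of all genes did. At an unadjusted p under 0.05, 1, 2 and 2 members did, and DESeq2 and limma called none in these comparisons either.

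Gdf11, which binds the same receptors as myostatin, had its highest median at 22 months and its highest single value at 24 months. In CPM, its lowest, median and highest values were 16.1, 19.1 and 26.7 at 8 months, 15.8, 26.4 and 32.4 at 18 months and 16.02, 33.3 and 40.9 at 22 months. They were 10.7, 25.4 and 42.5 at 24 months, 4.66, 15.0 and 26.5 at 26 months, and 3.97, 7.17 and 17.3 at 28 months. Of the 9 mice of 28 months, 8 lay below every mouse of 8 months, and 8 lay below every mouse of 22 months. The log2 fold change of Gdf11 was -1.06 from 8 to 28 months (standard error 0.27, FDR 0.00107) and -1.70 from 22 to 28 months (standard error 0.27, FDR 1.61e-05), and both falls passed. The higher level at 22 months did not pass against 8 months, with a log2 fold change of 0.65 (standard error 0.27, FDR 0.435). The steps from 24 to 26 months (-0.80, FDR 0.109) and from 26 to 28 months (-0.64, FDR 0.348) did not pass on their own.

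Relative to its mean, Gdf11 varied most between mice at 28 months. Its coefficient of variation in CPM was 17.2%, 39.1% and 55.8% in mice of 8, 24 and 28 months (n = 8, 8 and 9), whose means were 19.5, 25.4 and 9.38 CPM. The SD itself was 3.36 CPM at 8 months, highest at 24 months with 9.90 CPM, and 5.23 CPM at 28 months. In replicates 1 to 9 of 28 months, Gdf11 stood at 7.17, 5.26, 17.3, 14.4, 4.72, 15.3, 4.99, 3.97 and 11.3 CPM. In the same order, Acvr1b stood at 152, 236, 69.8, 100.1, 191, 86.8, 163, 134 and 176 CPM. The highest Gdf11 and the lowest Acvr1b of that age were thus both in replicate 3.

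Mstn itself did not pass in any comparison. Its lowest, median and highest CPM were 72.3, 106 and 141 at 8 months, 67.5, 113 and 129 at 18 months and 57.9, 110 and 148 at 22 months. They were 73.4, 125 and 137 at 24 months, 70.8, 118 and 200 at 26 months and 80.5, 124 and 285 at 28 months. The ranges of all ages overlapped, and 3 of the 9 mice of 28 months lay above all mice of 8 months. The log2 fold change between 28 and 8 months was 0.40 (standard error 0.19, FDR 0.0759). It was 0.20 (FDR 0.355) without replicate 2 of 28 months, whose 285 CPM lay apart from the next value of 165 CPM.

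The levels of the paralogs Mstn and Gdf11 were also set side by side within each mouse, as a ratio of TPM and with no test. The median of Mstn over Gdf11 was 8.12 in mice of 8 months (range 6.62 to 10.5) and 5.43 in those of 22 months (range 4.12 to 8.02). It was 11.7 (range 6.33 to 57.4) at 26 months, then 34.6 (range 6.97 to 81.4) in the oldest mice. At 28 months 7 of 9 mice lay above all mice of 8 months.

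Gdf5, a ligand of the bone morphogenetic protein (BMP) branch that signals through SMAD1, SMAD5 and SMAD8, was scarce at all ages and higher at 26 and 28 months than at 8 months. Lowest, median and highest values were 0, 0.152 and 0.217 CPM at 8 months, 0.0607, 0.303 and 1.07 CPM at 18 months and 0.0587, 0.273 and 2.40 CPM at 22 months. They were 0.0722, 0.337 and 1.70 CPM at 24 months, 0.127, 0.639 and 2.36 CPM at 26 months and 0.333, 0.851 and 3.31 CPM at 28 months. All 9 mice of 28 months lay above all 8 mice of 8 months, in which no library held more than 4 reads of the gene. Against 8 months the log2 fold change did not pass at 18 (1.49, FDR 1), 22 (1.97, FDR 0.355) and 24 months (2.06, FDR 0.119). It was 2.70 (standard error 0.69, FDR 0.00285) at 26 months and 3.08 (standard error 0.67, FDR 0.000194) at 28 months. Between 28 and 22 months it was 1.11 and did not pass (FDR 0.0904), and it passed at 2.15 (FDR 0.0031) when replicate 6 of 22 months, with 2.40 CPM, was left out. Without that mouse the value for 22 against 8 months was 0.93.

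Inhba, which encodes the subunit of activin A, did not change past the threshold at any age. Its median was 2.05 CPM at 8 months (0.953 to 2.74) and 1.57 CPM at 28 months (1.07 to 2.84), with wide overlap, and the log2 fold change was -0.16 (standard error 0.22, FDR 0.549). The lowest median was that of 26 months, 1.23 CPM (1.01 to 2.45), where the log2 fold change against 8 months was -0.51 (standard error 0.23, FDR 0.0712).

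Gdf15 encodes a distant relative that is induced by cellular stress and acts on a receptor in the brainstem. Its reads were too few for the filter, 0 to 4 in every library. All 8 mice of 8 months together gave 1 read, in 1 mouse, whereas 21 reads were spread over all 8 mice of 18 months. The other ages gave 13 reads in 6 of 8 mice (22 months), 7 in 4 of 8 (24 months), 14 in 6 of 9 (26 months) and 20 in 8 of 9 (28 months). Scaled to the pooled total counts of each age, the ratio to 8 months was 23.2 at 18 months (95% exact interval 3.73 to 958) and 20.3 at 28 months (3.24 to 839), and these intervals cover counting error only. In the edgeR fit without a filter on low counts the log2 fold change was 3.54 at 18 months (FDR 0.0371), 2.79 at 22 months (FDR 0.19) and 2.18 at 24 months (FDR 0.215), none past the threshold. It was 2.92 at 26 months (FDR 0.00733) and 3.38 at 28 months (FDR 0.00043), and both passed. These fitted values depend on the prior count, because the group of 8 months rests on 1 read.

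**Figure D2:**
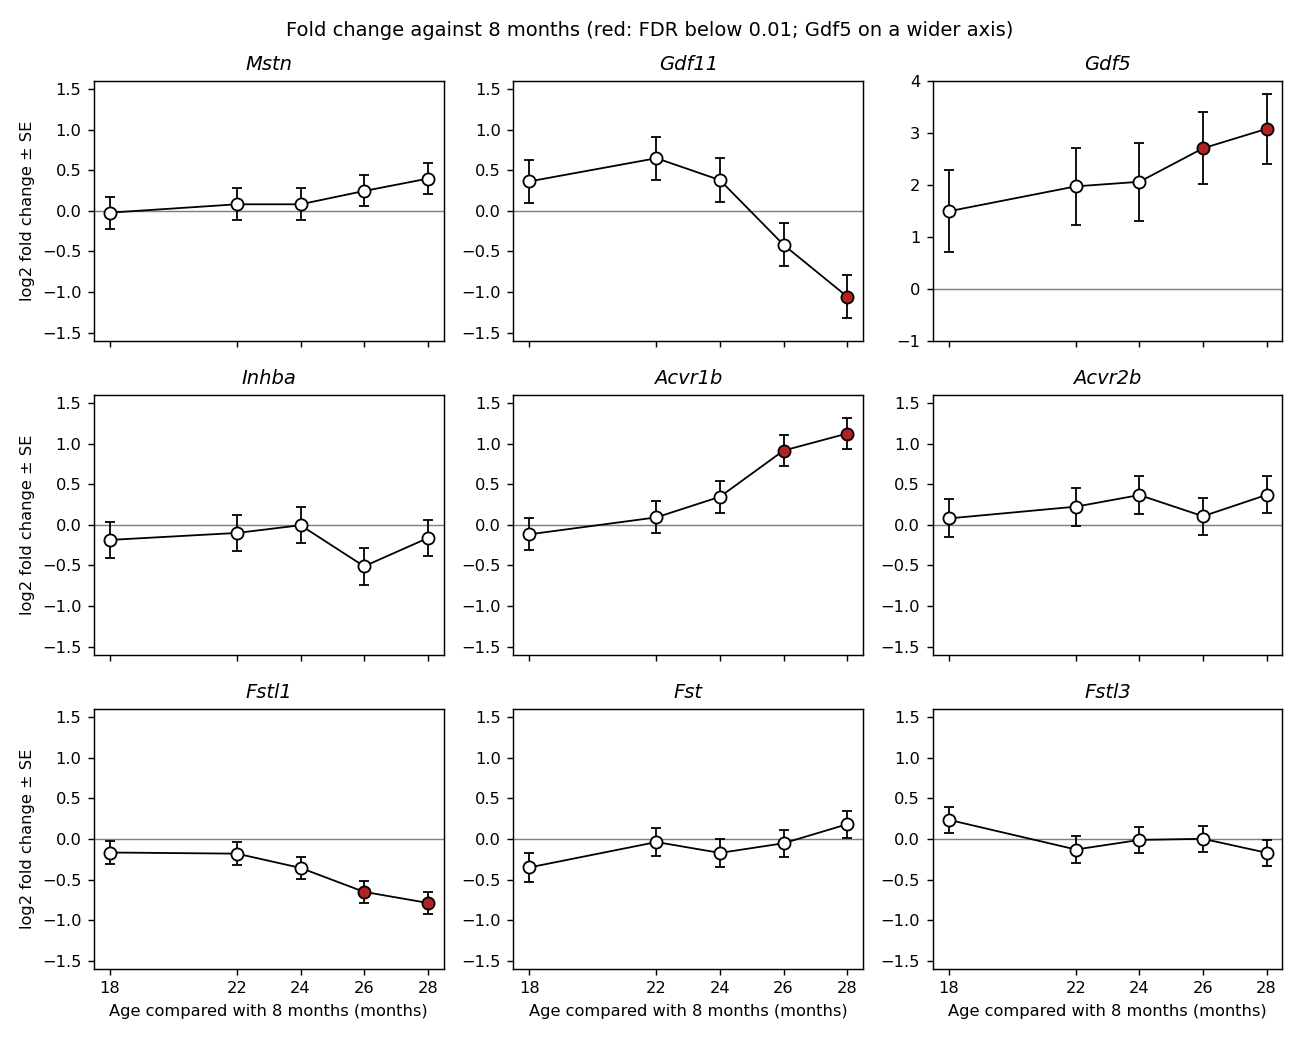
Log2 fold change of the 9 tested genes (y axis, points with standard error bars derived from the edgeR test) at 18, 22, 24, 26 and 28 months (x axis), each against 8 months, with red points past FDR 0.01. Acvr1b and Fstl1 reach 1.13 and -0.79 at 28 months, Gdf11 turns from 0.65 at 22 months to -1.06 at 28 months, and Gdf5 reaches 3.08 on its wider axis.

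Acvr1b, the type I receptor, was the member with the smallest FDR between 28 and 8 months. Its lowest, median and highest CPM were 48.9, 68.4 and 79.5 at 8 months, 44.3, 55.6 and 87.6 at 18 months and 47.7, 73.1 and 91.1 at 22 months. They were 67.6, 85.8 and 107 at 24 months, 68.8, 124 and 233 at 26 months and 69.8, 152 and 236 at 28 months. At 26 months 8 of 9 mice lay above every mouse of 8 months, and 8 of 9 did so at 28 months, so 1 mouse at each of these ages lay within the range of 8 months. The gene rose 1.89-fold by 26 months (log2 fold change 0.92, standard error 0.19, FDR 0.00045) and 2.18-fold by 28 months (1.13, standard error 0.19, FDR 7.76e-06). It also rose between 22 and 28 months (1.03, standard error 0.19, FDR 7.47e-05). Left out in turn, the mice of 8 and 28 months gave log2 fold changes of 1.01 to 1.22, with an FDR of at most 3.88e-05, and the value without replicate 2 of 28 months was the lowest, 1.01.

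The type II receptor Acvr2b did not pass. Its median was 4.08 CPM at 8 months (1.77 to 6.05) and 4.78 CPM at 28 months (2.62 to 8.08), and 3 of 9 mice of 28 months exceeded all mice of 8 months. The log2 fold change was 0.37 (standard error 0.23, FDR 0.167). The TPM of Acvr1b over that of Acvr2b within a mouse had a median of 9.39 (range 6.03 to 15.8) in mice of 8 months, 16.7 (range 7.06 to 39.6) in those of 26 months and 17.7 (range 7.24 to 32) in the oldest, and the ranges overlapped.

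**Figure D3:**
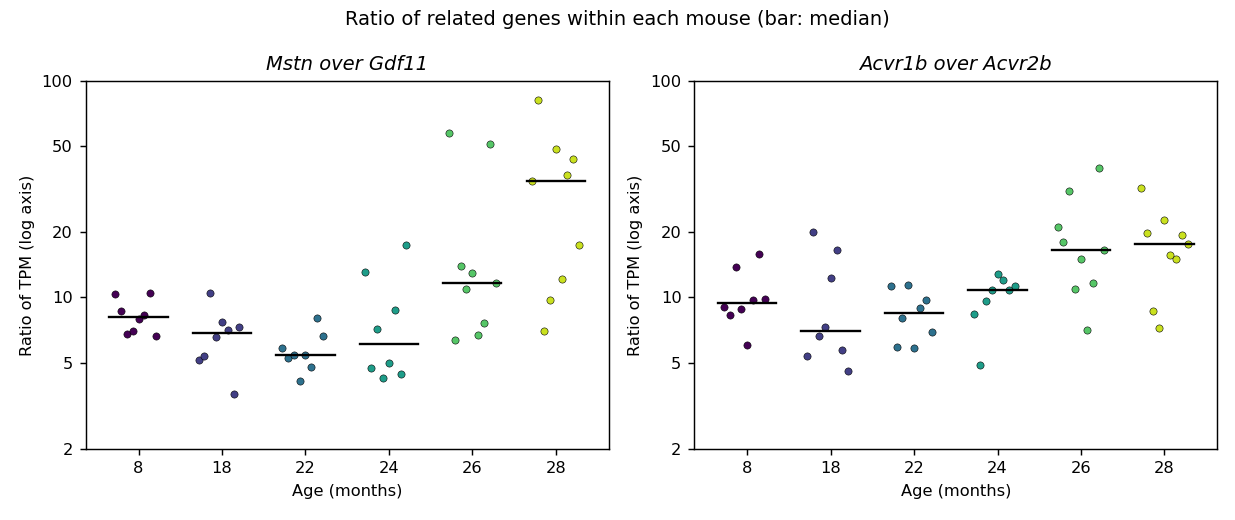
Ratio of the TPM of Mstn to Gdf11 (left) and of Acvr1b to Acvr2b (right) in each mouse (points; log y axis) by age in months, with the median of each age as a bar. The median of Mstn over Gdf11 is 8.12 at 8 months, 5.43 at 22 months and 34.6 at 28 months, and that of Acvr1b over Acvr2b is 9.39 at 8 months and 17.7 at 28 months.

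Among the genes listed as inhibitors, Fstl1 fell, and Fst and Fstl3 did not pass. Whether FSTL1 inhibits the ligands described here was not tested. FSTL1 is a secreted glycoprotein that shares a follistatin-like domain and is made largely by mesenchymal cells. Its lowest, median and highest CPM were 73.8, 83.2 and 95.8 at 8 months, 61.5, 71.5 and 95.5 at 18 months and 56.5, 73.3 and 93.1 at 22 months. They were 50.8, 63.7 and 74.3 at 24 months, 29.1, 49.4 and 80.5 at 26 months and 32.7, 43.3 and 66.7 at 28 months. All 9 mice of 28 months lay below all 8 mice of 8 months, and 8 of 9 did so at 26 months. By 26 months Fstl1 had fallen with a log2 fold change of -0.65 (standard error 0.14, FDR 0.000414), and by 28 months with one of -0.79 (standard error 0.14, FDR 8.43e-06), to 0.579 times the level of 8 months. It also fell between 22 and 28 months (-0.61, standard error 0.14, FDR 0.000507). Over all genes tested, the CPM ranges of 28 and 8 months did not overlap in 4.7%, and among the 9 members this held for Fstl1 and Gdf5. Of these, Gdf5 had entered the test through mice older than 8 months.

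Follistatin and FSTL3, which bind activins and myostatin directly, stayed within the spread of the mice. The median of Fst was 4.94 CPM (range 2.84 to 6.56) in mice of 8 months, 3.78 CPM (range 1.64 to 5.61) in those of 18 months and 5.17 CPM (range 4.51 to 6.55) in those of 28 months. Its log2 fold change was -0.35 at 18 months (standard error 0.17, FDR 1) and 0.18 at 28 months (standard error 0.17, FDR 0.366), both against 8 months. Fstl3 had a median of 1.86 CPM at 8 months (1.19 to 2.22) and 1.55 CPM at 28 months (1.13 to 2.62), with a log2 fold change of -0.17 (standard error 0.16, FDR 0.382).

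At 26 months, 3 of the 9 members had passed against 8 months (33.3%, with 18.4% of all genes tested), namely Acvr1b, Fstl1 and Gdf5. Gdf5 had entered the test through mice older than 8 months, and apart from it only Acvr1b and Fstl1 passed. Between 28 and 22 months 3 passed as well, Acvr1b, Fstl1 and Gdf11 (33.3%, with 27.7% of all genes tested). None passed between neighboring ages, that is 22 and 18, 24 and 22, 26 and 24 or 28 and 26 months, where 0.00795%, 0%, 0% and 0% of all genes tested did. At an unadjusted p under 0.05, 1, 0, 4 and 1 members did in these steps, and DESeq2 and limma called none of them.

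The pathway around the members was described by 101 other genes in 6 lists, of which 73 could be tested. Between 28 and 8 months 13 of them rose and 16 fell, together 39.7% of the 73 against 39.6% of all genes tested, and their median log2 fold change was -0.04. By list, 40% of the other ligands, 53.3% of the receptors, 50% of the inhibitors and 50% of the processing genes passed. For Smads and their regulators it was 26.7%, and for target genes 20%. None of the 73 passed at 18, 22 or 24 months against 8 months, and 16 passed at 26 months (7 higher, 9 lower), 21.9% of them against 18.4% of all genes tested.

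Of 15 other ligands 1 rose and 5 fell between 28 and 8 months. Lefty1, an antagonist of Nodal, went from 1.23 ± 0.572 CPM (SD, n = 8) to 0.407 ± 0.399 CPM (SD, n = 9), a log2 fold change of -1.58 (FDR 0.000861). Gdf10, a BMP-type ligand, fell by 1.01 (FDR 0.00135). Bmp7 fell by 0.95 (FDR 0.00578), a call that was lost when any of 6 mice (replicates 1, 6 and 7 of 8 months and 1, 2 and 3 of 28 months) was left out, with a log2 fold change of -0.92 to -0.82. Inhbb, the other activin subunit, had 2.14 ± 0.362 CPM at 8 months and 3.82 ± 3.97 CPM at 28 months and did not pass (0.85, FDR 0.0148); its log2 fold change was 0.28 without replicate 2 of 28 months and passed at 0.95 to 0.97 without replicate 3, 4, 7 or 9. The ligand that rose was Inha, whose product pairs with activin subunits to form inhibins, which oppose activin (0.85, FDR 0.000572).

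Receptors moved in both directions, as did all genes tested, of which 21% rose and 18.7% fell. Of 15 other receptors and co-receptors, 5 rose and 3 fell. Acvr2a, the second type II receptor of activin and myostatin, rose from 42.2 ± 8.69 to 64.8 ± 24.2 CPM (SD, n = 8 and 9; log2 fold change 0.62, FDR 0.00151). Tgfbr1 (ALK5), the alternative type I receptor for myostatin and GDF11, rose from 43.8 ± 6.01 to 77.9 ± 20.7 CPM (0.83, FDR 3.57e-07). All 9 mice of 28 months lay above all mice of 8 months, and 4.7% of all genes tested had ranges without overlap. Bmpr1b, a type I receptor of GDF5, rose from 10.9 ± 1.21 to 20.1 ± 5.36 CPM (0.88, FDR 1.11e-06). Acvr1c (ALK7), a type I receptor known from fat, fell from 1.96 ± 1.09 to 0.702 ± 0.428 CPM (-1.48, FDR 0.000145). Of 5 adipocyte markers 4 fell, and their summed level was 29.4 to 112 CPM at 8 months and 16.6 to 39.4 CPM at 28 months; none was at 0 in all mice, and their part in the change of Acvr1c was not tested. Amhr2, the receptor of anti-Müllerian hormone, fell from 12.2 ± 2.65 to 6.34 ± 2.50 CPM (-0.94, FDR 3.32e-05).

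Of 10 other extracellular inhibitors 1 rose and 4 fell. Wfikkn2, whose product binds myostatin and GDF11, rose from 21.5 ± 1.51 to 27.0 ± 5.76 CPM (log2 fold change 0.33, FDR 0.00365), and the call was lost without replicate 1 of 28 months (0.23, FDR 0.0218). Its relative Wfikkn1 did not reach the filter, with at most 0.667 CPM in any mouse. The BMP antagonists Chrd (-0.61, FDR 7.79e-05), Bmper (-0.54, FDR 0.000244) and Nbl1 (-0.48, FDR 0.00178) fell. Among 8 genes of the latent complex and of precursor processing, 1 rose and 3 fell. Furin, the protease that cleaves the precursors, rose from 55.0 ± 4.94 to 85.2 ± 16.1 CPM (0.63, FDR 9.59e-07), with no overlap of the ages. The related convertase Pcsk6 (-0.90, FDR 2.42e-05) and Bmp1, a tolloid-type protease that also trims procollagen (-0.96, FDR 5.55e-07), fell without overlap. Such a lack of overlap held for 4.7% of all genes tested.

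Downstream, 3 of 15 Smads and Smad regulators rose and 1 fell. Smad2 (-0.08, FDR 0.358), Smad3 (-0.20, FDR 0.485) and the inhibitory Smad7 (0.17, FDR 0.378) did not pass. Smad3 ranged from 42.9 to 396 CPM at 28 months and passed at -0.66 (FDR 0.00167) when replicate 1 of 28 months was left out. Smad5, an effector of the BMP branch, rose (0.45, FDR 1.28e-05). Tgif1, a corepressor of Smad2 and Smad3, rose from 7.37 ± 0.887 to 28.4 ± 32.6 CPM (1.94, FDR 4.64e-05). Its highest value at 28 months was 106 CPM, 1 mouse of that age lay below all mice of 8 months, and without replicate 1 of 28 months the log2 fold change was 1.34 (FDR 0.000604). Pmepa1, a target and inhibitor of the pathway, fell (-0.65, FDR 3.56e-06). Of 10 target genes 2 rose: Nox4 (2.3-fold, FDR 0.000198), which encodes an oxidase induced by TGF-beta, and Fbxo30 (0.86, FDR 0.000373), a ubiquitin ligase known from muscle atrophy, which stood at 0.49 without replicate 2 of 28 months and still passed.

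**Figure D4:**
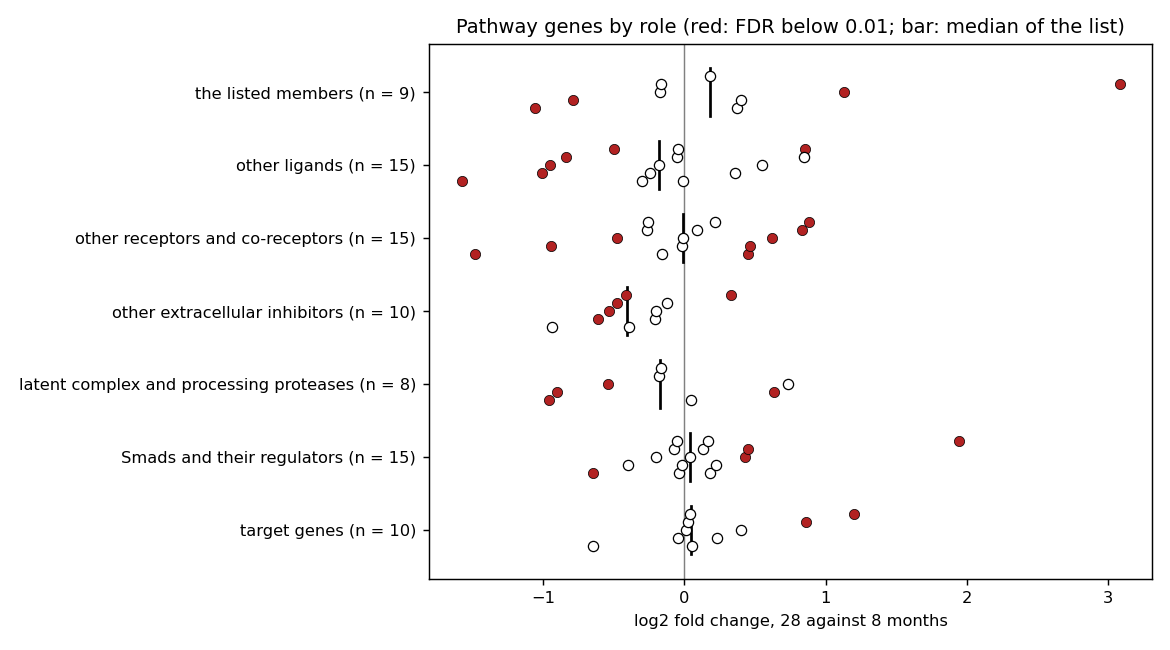
Log2 fold change between 28 and 8 months (x axis) of the 9 tested members and of the 73 other tested genes, 1 point a gene, in lists by role (y axis), with red points past FDR 0.01 and a bar at the median of each list. Each of the 7 lists has points on both sides of 0, and 13 of the 73 other genes are red on the right and 16 on the left.

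Marker levels of other cell types moved along with some members. Of 6 fibroblast markers 5 fell between 28 and 8 months (median log2 fold change -1.41), and Pdgfra did not pass (-0.30, FDR 0.0258). Their summed level ranged from 390 to 604 CPM at 8 months and from 76.5 to 272 CPM at 28 months, with none at 0. The collagen genes Col3a1 and Col1a1 were its largest parts at 8 months, with means of 199 and 103 CPM. At 28 months their means were 40.9 and 24.4 CPM. Over the 50 mice the log2 CPM of Fstl1 followed this sum with r = 0.89, and with r = 0.78 after the mean of each age was removed. The 3 genes whose log2(TPM + 1) was most like that of Fstl1 among 11668 others were Pcsk6 (r = 0.93), Cd34 (r = 0.92) and Pi16 (r = 0.92), the last of which is in the marker list. Gdf11 followed the sum with r = 0.70, or 0.62 within ages, and Acvr1b with r = -0.83, or -0.62. Of 5 tendon markers 2 fell (229 to 535 CPM in sum at 8 months, 139 to 385 CPM at 28 months), and Fstl1 followed their sum with r = 0.75, or 0.59 within ages. These values share a library and its scaling factor, and the part of these cells in the changes of the members was not tested.

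Of 8 tested markers of denervated fibres, genes that muscle raises when it loses its nerve, such as the acetylcholine receptor subunit gene Chrna1, 8 rose. Their summed level was 75.7 to 127 CPM at 8 months and 152 to 643 CPM at 28 months, with Chrng, the fetal-type receptor subunit, too low to test. Acvr1b followed that sum with r = 0.76 over the 50 mice and 0.46 within ages, Gdf5 with 0.63 and 0.40, Mstn with 0.58 and 0.59, Fstl1 with -0.76 and -0.42, and Gdf11 with -0.67 and -0.39. Runx1, 1 of these markers, was the gene most like Gdf5 (r = 0.68 over 50 mice, 0.48 within ages). Other sums were followed about as closely. Of 4 tested satellite cell markers Cdh15 rose between 28 and 8 months (log2 fold change 0.57, FDR 0.000179). Chodl fell (-0.68, FDR 2.86e-05), and 2 did not pass. Cdh15 was the largest part of their sum, with means of 17.0 CPM at 8 months and 25.3 CPM at 28 months. Acvr1b followed the satellite cell sum with r = 0.52 over the 50 mice and 0.59 within ages. Mstn followed it with 0.47 and 0.44 and the fibroblast sum with -0.53 and -0.55. For Mstn the tendon sum gave -0.51 and -0.44, and the pericyte and smooth muscle sum gave -0.51 and -0.49. Within ages Inhba followed the latter with 0.54, the tendon sum with 0.58 and the endothelial sum with 0.50. In the changes of the members, the part of these cells and fibres was not tested. Of 6 markers of the muscle fibre itself 1 rose and none fell, with a summed level of 156000 to 207000 CPM at 8 months and 119000 to 245000 CPM at 28 months. Of 6 macrophage markers 3 rose (72.2 to 129 CPM in sum at 8 months, 104 to 278 CPM at 28 months), and none of the 5 lymphocyte markers passed the filter.

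**Figure D5:**
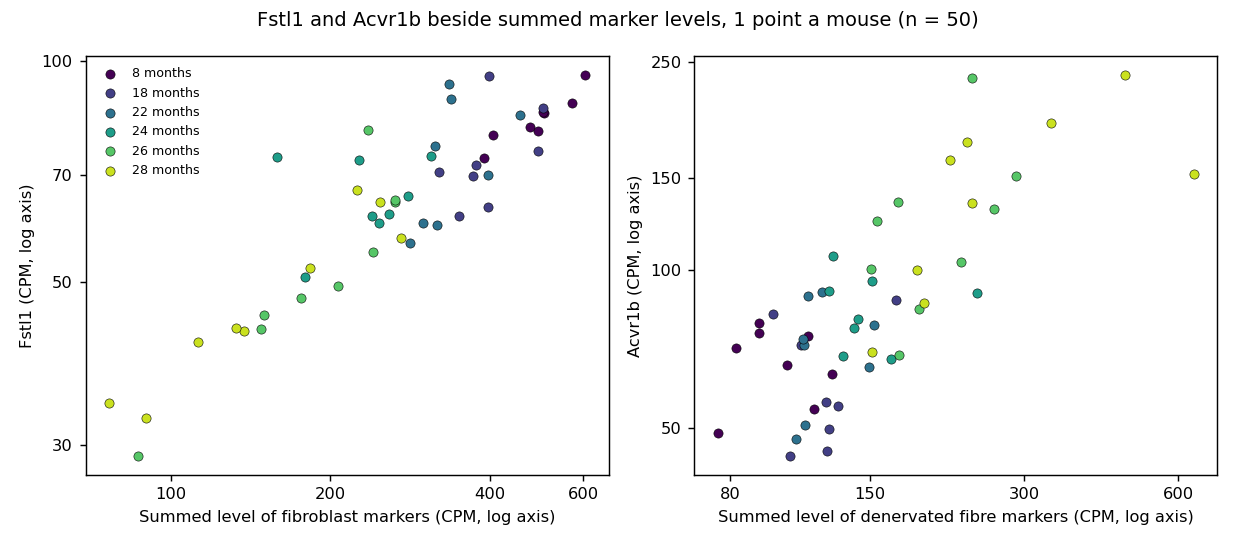
CPM of Fstl1 beside the summed CPM of 6 fibroblast markers (left) and of Acvr1b beside that of 9 denervated-fibre markers (right), both axes logarithmic, 1 point a mouse coloured by age (n = 50). The points rise together in both panels, with r of 0.89 (left) and 0.76 (right) on log2 values, and the mice of 28 months spread along each from 32.7 to 66.7 CPM of Fstl1 and from 69.8 to 236 CPM of Acvr1b.

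Likeness over the 50 mice set the members apart from each other. Gdf11 was most like Nkain1 (r = 0.90), Jph2 (r = 0.88) and Neurl1a (r = 0.87), and these stood at 0.83, 0.79 and 0.80 within ages. Acvr1b was most like Ipo13 (r = 0.92), Tfdp2 (r = 0.91) and Ube4a (r = 0.91), with 0.80, 0.79 and 0.79 within ages. The nearest gene to Mstn was Stat5b (r = 0.76), then Tma16 and Rnmt. Acvr2b was most like Sema6d (r = 0.80), Cpne3 and Ptpn21, Inhba most like Plekha6 (r = 0.74), Col8a1 and Dpysl3, Fst most like Tmem168 (r = 0.58), Rab18 and Gpbp1l1, and Fstl3 most like Tmem206 (r = 0.49), Pofut2 and Tagln. Gdf5 was next most like Actr1a (r = 0.66) and Hmga1 (r = 0.64). Among the members themselves, the order of the pairs depended on whether the means of the ages were removed. Over all mice Fstl1 and Acvr1b had the largest value, r = -0.74 (-0.49 within ages), followed by Gdf11 and Acvr1b at -0.67 (-0.37 within ages). Within ages the largest were Mstn and Acvr1b at 0.64 (0.65 over all mice) and Inhba and Fstl1 at 0.61 (0.52 over all mice). For Mstn and Acvr1b, the value over all mice was 0.53 without the 2 mice farthest from the median of Mstn. Their Spearman rank correlation over all mice was 0.455. For Inhba and Fstl1 it was 0.58. These are descriptions of values that share a library, and none of the genes was tested for a link.

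On GRCm38 the members lie on 8 chromosomes. Mstn (ENSMUSG00000026100) is on chr1:53061640-53068079, Gdf5 (ENSMUSG00000038259) on chr2:155941023-155945367 and Gdf15 (ENSMUSG00000038508) on chr8:70629393-70632456. Acvr2b (ENSMUSG00000061393) is on chr9:119402118-119434995, and chromosome 10 holds both Gdf11 (ENSMUSG00000025352) at chr10:128882295-128891718 and Fstl3 (ENSMUSG00000020325) at chr10:79777272-79782630. Chromosome 13 holds Inhba (ENSMUSG00000041324) at chr13:16011851-16031621 and Fst (ENSMUSG00000021765) at chr13:114452290-114458951. Acvr1b (ENSMUSG00000000532) is on chr15:101174067-101213684 and Fstl1 (ENSMUSG00000022816) on chr16:37776873-37836514. The annotation places the protein-coding genes Gm15557 and Prss57 across Gdf5 and Fstl3 on the opposite strand, and reads had been assigned by strand. At most 0.602% of the 31-base stretches of a member's transcripts (Inhba) occur in transcripts of another protein-coding gene, and for Mstn, Gdf5, Gdf15, Fstl1, Fstl3 and Acvr2b none do, so few reads could be split between genes.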

How the data were processed

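Per the labels and the study's methods, the authors trimmed reads with Cutadapt 1.9.1, assigned them by strand to protein-coding Ensembl transcripts of GRCm38 with kallisto 0.43.1, shared a read that fit several transcripts equally among them, and deposited counts summed per gene. The deposited TPM values were made by the authors from the same counts divided by transcript length.

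Here the deposited counts of all 50 mice were fitted with edgeR 4.0.16 (TMM factors, a single quasi-likelihood model of the 6 ages, genes that 8 or more libraries held at 1 CPM or above), and 10 pairs of ages plus any difference among ages were tested at an FDR of 0.01 over all 12586 genes. TMM-scaled CPM are shown as levels. TPM are used to order the genes, for the ratios within a mouse and in the limma fits. The likeness of genes and the pairs of members rest on log2(TPM + 1). Alternatives were upper-quartile factors, no filter, a replicate block, DESeq2 1.42.0, limma 3.58.1 on log2(TPM + 1) and log2(TPM + 0.1), a fit on the 2 ages alone, and leaving out each mouse. The fit was tested on simulated data. The edgeR test gives no standard error. Those shown are the absolute log2 fold change divided by the square root of the F statistic of that test.

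Ages and replicate numbers came from the labels. The replicates were separate animals, and any 2 mice of an age differed by at least 6.44 times the counting variance. The members and gene lists were chosen with earlier results of these data known. The text names all 10 members, in each list up to 3 genes with the largest change among those past the threshold, 9 partners fixed by name (Inhbb, Acvr2a, Tgfbr1, Acvr1c, Wfikkn1, Wfikkn2, Smad2, Smad3 and Smad7), and the 3 genes most like each member among those with a mean of at least 1 TPM; Inha was added after its value was seen. Positions and 31-base stretches were read from a GENCODE annotation of the same build and promoter windows from RefSeq on GRCm38.p6. The depth of 13607229 to 21267375 counts a library left Gdf15 at 4 reads or fewer a library.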

Additional observations from a re-analysis of the deposited data

Results flagged for a closer look

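Each member and age was screened for a mouse set apart from the rest of its group, by Dixon's ratio of the gap to the range. Of 60 groups screened 10 held such a mouse, in each case the highest of its age. The cutoffs flag about 1 in 20 groups only where values are normally distributed. That was not checked for these CPM, and some groups rest on few reads, so the count of 10 cannot be read as an excess.

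Mstn stood at 285 CPM in replicate 2 of 28 months, with the next mouse at 165 CPM. Acvr1b stood at 233 CPM in replicate 1 of 26 months, with the next at 152 CPM. Gdf5 had 2.40 CPM in replicate 6 of 22 months (next 0.593 CPM) and 3.31 CPM in replicate 1 of 28 months (next 1.61 CPM). Inhba had 3.51 CPM in replicate 2 of 24 months (next 2.13 CPM) and 2.45 CPM in replicate 6 of 26 months (next 1.46 CPM). Fstl3 had 2.47 CPM in replicate 4 of 22 months (next 1.78 CPM), 2.70 CPM in replicate 3 of 24 months (next 1.85 CPM) and 2.62 CPM in replicate 1 of 28 months (next 1.88 CPM). Gdf15 had 0.0516 CPM, a single read, in replicate 2 of 8 months, where the other mice had none.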

How the results depend on the processing

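The calls of Acvr1b, Fstl1, Gdf11 and Gdf5 between 28 and 8 months held under upper-quartile factors, without the filter, with DESeq2, with both limma fits, on the 2 ages alone, with the replicate block and with each mouse left out. The count of members past the threshold stayed at 4 there, apart from 5 without the filter, where Gdf15 was added. Without the filter Gdf15 also passed at 26 months and across all 6 ages, where the count was 5, and with the pseudocount of 1 on TPM that count was 3, without Gdf5. With the pseudocount of 1 on TPM the change of Gdf5 at 28 months was 0.75, and at 26 months it did not pass (0.53, FDR 0.026). Among the other pathway genes named, Inha included, calls were lost on the 2 ages alone for Lefty1, Acvr2a, Wfikkn2 and Fbxo30, under upper-quartile factors for Wfikkn2, and with limma for Nbl1. Of the genes past the threshold between 28 and 8 months 52.9% were higher, against 44.9% under upper-quartile factors.

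The replicate numbers are shared by the ages, but mice of 1 number did not vary together (mean r = 0.04 over 121 pairs, above 0.1 in 49), so the block pairs nothing; with it, the members called between 28 and 8 months were again 4. Counts over all genes were less stable in the early comparisons. Under the block they were 122 between 24 and 8 months and 2 between 22 and 18 months, against 77 and 1. DESeq2 gave 34 (22 and 8 months, against 5), 190 (24 and 8), 2 (22 and 18) and 14 (26 and 24, against 0). The 2 ages alone gave 4 (18 and 8, against 9), 24 (22 and 8), 159 (24 and 8), 4 (26 and 24) and 1883 (28 and 22, against 3485). Upper-quartile factors gave 14 (22 and 8), limma 4 with either pseudocount (18 and 8), 12 with 0.1 (22 and 8) and 1 with a pseudocount of 1 (28 and 26, against 0), and no filter 1 (26 and 24) and 1 (28 and 26). Without 1 mouse at a time, the count ran from 3 to 8 (18 and 8 months), 1 to 12 (22 and 8), 47 to 87 (24 and 8, fewest without replicate 7 of 8 months), 1454 to 2598 (26 and 8, against 2314, fewest without replicate 1 of 26 months), 1 to 3 (22 and 18) and 0 to 1 (26 and 24). Gdf15 and Gdf5 rest on few reads, which limits the precision of their folds.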

Other observations

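Several relatives of the members were detected below the filter on low counts and entered no test. Gdf6, a close relative of Gdf5, averaged 0.311 CPM at 8 months and 0.676 CPM at 28 months. Nodal, which signals through the receptors of activin, averaged 0.749 CPM at 8 months and 0.238 CPM at 28 months. Grem1, a BMP antagonist, averaged 0.401 CPM at 8 months and 1.09 CPM at 28 months. Inhbc, Bmp10, Cfc1 and Fstl4 had no read in any of the 50 mice. The receptor of GDF15, Gfral, had at most 1 read in any mouse. These genes were chosen after their values were seen.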
